A study of Mus musculus with 2 samples.

Results

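Btnl1, Btnl2, Btnl4 and Btnl6 are butyrophilin-like genes, and their messages were measured in small intestine tissue. The tissue came from 1 female C57BL/6J mouse, an adult of 10 weeks. The 4 genes were taken by name from the gene tables and are 4 of 43346 Ensembl genes, with 6 annotated transcripts among them. Poly(A) RNA was sequenced in 2 technical libraries of that tissue, and whether they shared an RNA extraction is not stated. The repeat library (technical replicate 2) was made in 2015, and the original library (technical replicate 1) belonged to the earlier publication. They held 24509862 expected counts (repeat library) and 28277875 (original library), where an expected count is an estimated number of reads that need not be whole. No treatment or genotype was compared, so the values describe levels in this tissue and how far 2 libraries of the same animal gave the same levels. With a single animal, nothing here measures how mice differ.

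Butyrophilins and butyrophilin-like proteins are membrane proteins of the immunoglobulin superfamily, related to the B7 molecules that regulate T cells. In the mouse small intestine, Btnl1 forms a pair with Btnl6 on the surface of villus enterocytes, and the pair is recognised by intraepithelial gamma-delta T cells whose receptor uses the V gamma 7 chain. Btnl4 is a close relative of Btnl6 and can also pair with Btnl1. Btnl2, when given as a recombinant protein, inhibits the proliferation of T cells, and it lacks the intracellular B30.2 domain that many butyrophilins carry.

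The 4 genes lie in one stretch of chromosome 17 (mm10, positions counted from 1), beside the class II genes of the major histocompatibility complex. Btnl2 (ENSMUSG00000024340.10, 34354822 to 34369495) and Btnl1 (ENSMUSG00000062638.10, 34377132 to 34386028) are on the plus strand. Btnl4 (ENSMUSG00000058435.5, 34466562 to 34477318) and Btnl6 (ENSMUSG00000092618.2, 34507804 to 34517352) are on the minus strand, with the pseudogene Btnl5-ps between them and Btnl7-ps beyond Btnl6. No annotated gene overlaps any of the 4. A run of 4 short exons, 102 bases in all, stands between the exons for the outer part of the protein and the long last exon in Btnl6, Btnl4 and Btnl1. These exons are shown because they display at base level how near Btnl4 is to Btnl6 and how far Btnl1 is from both. They are joined in transcript order from the GENCODE M21 transcripts, and capitals mark bases that differ from Btnl6 at the same place.

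Btnl6, exons 5 to 8: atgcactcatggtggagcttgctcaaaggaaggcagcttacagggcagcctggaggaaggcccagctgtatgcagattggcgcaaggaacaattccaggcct
Btnl4, exons 5 to 8: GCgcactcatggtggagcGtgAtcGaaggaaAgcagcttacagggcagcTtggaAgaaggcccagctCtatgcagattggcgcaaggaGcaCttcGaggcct
Btnl1, exons 6 to 9: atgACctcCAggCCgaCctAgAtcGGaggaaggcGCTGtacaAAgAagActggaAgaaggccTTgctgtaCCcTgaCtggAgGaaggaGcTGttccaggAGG

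Btnl4 differed from Btnl6 at 12 of these 102 bases and Btnl1 at 34. Over whole transcripts Btnl4 and Btnl6 were 90.1% identical across 1751 aligned bases. Btnl6 was 91.5% identical to Btnl7-ps and 90.6% to Btnl5-ps. Between Btnl4 and Btnl6 the second exon was the most alike, at 94.0%, and the fourth the least, at 84.6%. Even so, few stretches were shared outright. Of all windows of 50 bases, 10.0% in Btnl4 and 6.58% in Btnl6 occurred unchanged in another of the 4 genes or in either pseudogene, and none did in Btnl1 or Btnl2. The deposited estimates carried little uncertainty between genes. The posterior SD of the gene count was 1.08 reads for Btnl4 in the repeat library and 0 for the other genes and libraries among the 4.

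All 4 genes were expressed in both libraries, and their order was the same. TPM is a gene's share of all transcripts, corrected for transcript length, so it can be compared between genes. Btnl6, a partner in the pair seen by V gamma 7 cells, stood at 311 TPM in the repeat library and 73.1 TPM in the original. These values rested on 9054 and 3376 counts, and the exact 95% Poisson intervals were 304.7 to 317.5 TPM in the repeat library and 70.6 to 75.6 TPM in the original. Btnl1, the partner common to the known pairs, stood at 273 TPM in the repeat library and 69.1 TPM in the original, from 8664 and 3418 counts. Its intervals were 267.6 to 279.1 TPM and 66.8 to 71.5 TPM in the same order. Within the original library the intervals of Btnl6 and Btnl1 overlapped, and within the repeat library they did not. Such intervals cover counting error only.

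Btnl2 stood at 161 TPM in the repeat library and 20.9 TPM in the original, from 7241 and 1466 counts. Btnl4 was the lowest, at 85.9 TPM in the repeat library and 9.03 TPM in the original, from 2561 and 420 counts. The intervals of Btnl2 were 157.4 to 164.9 TPM in the repeat library and 19.8 to 22.0 TPM in the original, and those of Btnl4 82.6 to 89.3 and 8.19 to 9.94 TPM. Each gene was higher on the TPM scale in the repeat library. Over both libraries the means were 192 ± 168 TPM for Btnl6, 171 ± 144 for Btnl1, 91.0 ± 99.2 for Btnl2 and 47.5 ± 54.4 for Btnl4 (SD, n = 2 technical libraries). The ranges of every pair of neighbours in this order overlapped, so the order held inside each library but the steps were smaller than the spread between libraries. In bulk tissue, fewer cells of a type and less RNA per cell cannot be told apart.

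Btnl6 and Btnl1 were near to each other in both libraries. The TPM of Btnl6 was 1.14 times that of Btnl1 in the repeat library and 1.06 times in the original. Btnl2 was 1.88 times Btnl4 in the repeat library and 2.31 times in the original. The ratios across these pairs moved further. Btnl1 was 1.70 times Btnl2 in the repeat library and 3.31 times in the original, and Btnl6 was 3.62 and 8.09 times Btnl4 in the same order. Of the summed 831 TPM of the 4 genes in the repeat library and 172 TPM in the original, Btnl6 and Btnl1 took 37.4% and 32.9% in the repeat library, and 42.5% and 40.2% in the original. Among 21474 protein-coding genes, Btnl6 ranked at place 412 by TPM in the repeat library and 646 in the original, Btnl1 at 457 and 699, Btnl2 at 729 and 2172, and Btnl4 at 1348 and 3827.

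**Figure D1:**
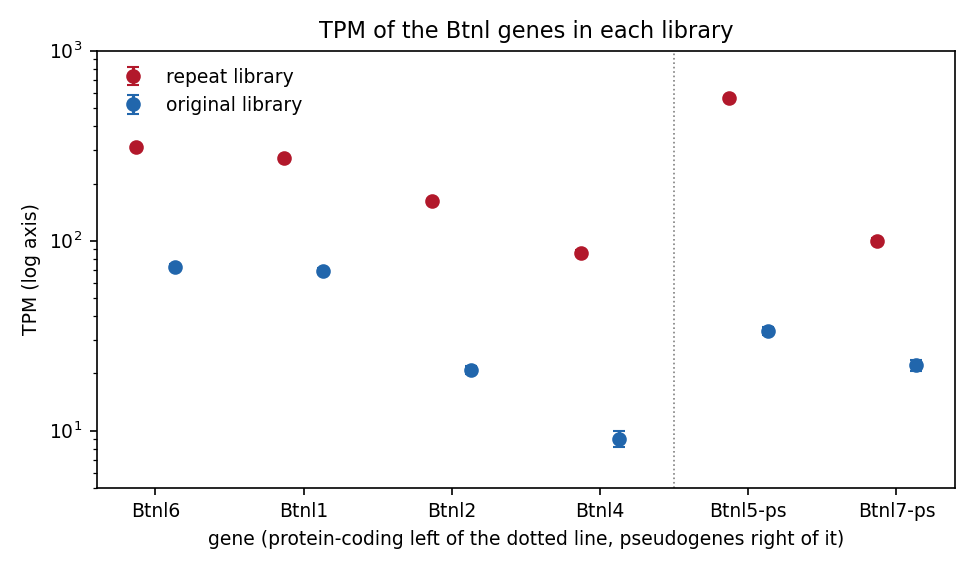
TPM (log axis) of the 4 Btnl genes and of the 2 neighbouring pseudogenes, with the repeat library left of the original for each gene. Points are the deposited TPM and bars the exact 95% Poisson intervals on counts, many of which are smaller than the point. Every gene stands higher in the repeat library, and Btnl6 and Btnl1 lie close together in both.

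The difference between libraries on the TPM scale includes their mitochondrial content. Mitochondrial genes and their nuclear copies took 21.6% of all TPM in the repeat library and 72.3% in the original. With these left out and TPM rescaled, Btnl6 stood at 397 TPM in the repeat library and 264 in the original, and Btnl1 at 349 and 249.8. Btnl2 then stood at 205.5 and 75.4, and Btnl4 at 109.6 and 32.6. The ratios of repeat over original on that scale were 1.5 for Btnl6, 1.4 for Btnl1, 2.73 for Btnl2 and 3.36 for Btnl4.

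Counts were compared between the libraries with a two-sided exact binomial test against library sizes scaled by the trimmed mean of M values (TMM). The test was adjusted by Benjamini-Hochberg over 15194 genes with 20 or more counts. A gene was called different at an adjusted p under 0.05 with a difference of 2-fold or more. Btnl4 and Btnl2 were called higher in the repeat library. The Btnl4 log2 ratio, repeat over original, was 1.89 with a counting SE of 0.08 (adjusted p = 6.82e-181, exact binomial test). The Btnl2 log2 ratio was 1.59 with an SE of 0.04, and its adjusted p was too small to be represented. Btnl6 at 0.71 and Btnl1 at 0.63, each with an SE of 0.03, were also higher in the repeat library, by less than 2-fold (adjusted p = 1.88e-138 and 2.73e-107, exact binomial test). So 2 of the 4 genes were called higher and 0 lower, where 68.4% of all tested genes were called, 39.2% higher in the repeat library and 29.1% higher in the original. The test compares these libraries, not conditions, and with deep libraries 88.9% of tested genes passed the adjusted p at any fold. All 4 Btnl genes passed it higher in the repeat library, as did 47.6% of tested genes. With mitochondrial genes and their copies left out of the TMM sizes, the log2 ratios were 1.88 for Btnl4, 1.58 for Btnl2, 0.70 for Btnl6 and 0.62 for Btnl1, with the same calls.

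These calls depended on scaling and on GC content. With plain total counts as library sizes all 4 genes were called higher in the repeat library, where 61.4% of all genes were called, 51.4% higher in the repeat library and 10.0% higher in the original, and the median log2 ratio of all genes shifted to 1.10 from 0.18 under TMM. Of the genes called, 83.7% were then higher in the repeat library, against 57.4% under TMM. Across tested nuclear genes the ratio climbed with the GC content of the transcripts, with a median log2 ratio of -2.35 around 38.5% GC and 4.70 around 58.5%. The 4 genes have 51.0% (Btnl6), 51.5% (Btnl1), 52.1% (Btnl4) and 52.2% (Btnl2), against a median of 50.4% for tested genes. The 1096 other tested nuclear genes in that range of GC content had a median log2 ratio of 0.89, with quartiles of -0.04 and 1.85, and 46.2% of them were called higher in the repeat library. After a lowess trend on GC content was subtracted, 0 of the 4 were called in either direction, where 35.2% of all genes were called, 17.6% in each direction. Their log2 ratios were then 0.78 for Btnl4, 0.44 for Btnl2, 0.08 for Btnl6 and -0.22 for Btnl1, so Btnl1 changed direction. All 4 still passed the adjusted p under 0.05 of the exact binomial test at any fold. Before that step 88.9% of all tested genes passed it, and the share after the step is not given here. GC content was read from M21 sequences, in which Btnl1 has 2113 bases where the deposited table counted 1861.

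**Figure D2:**
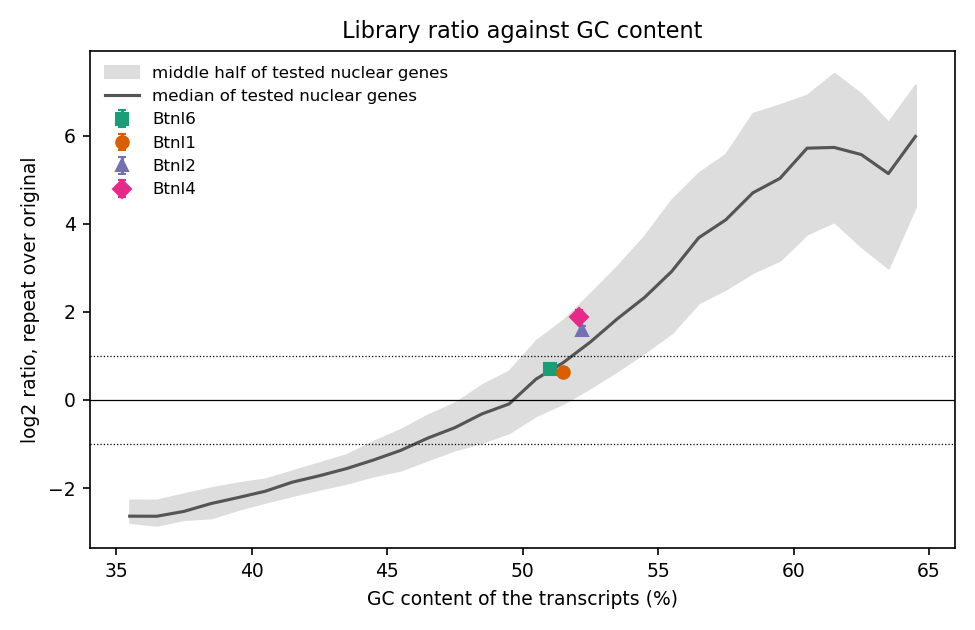
Log2 ratio of repeat over original library (TMM-scaled counts) against transcript GC content. The line is the median and the band runs between the quartiles of tested nuclear genes in steps of 1 percentage point with 20 or more genes, dotted lines mark 2-fold, and the bars on the 4 Btnl genes are 95% counting intervals. Btnl6 and Btnl1 lie near the median line at their GC content, and Btnl2 and Btnl4 lie above it, inside the band.

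At the transcript level, Btnl1 and Btnl4 had a single annotated model each in the deposited tables. Btnl6 had a pair of models that share 8 whole exons of 9 and differ in the last. The shorter, Btnl6-201, is protein coding and ends at the stop codon. The longer, Btnl6-202, is labelled an unprocessed pseudogene in M21 and runs 131 bases further, over 34507804 to 34507934 on chromosome 17. Btnl6-202 held 78.8% of the gene's TPM in the repeat library and 100% in the original. In the repeat library 1789 counts were assigned to Btnl6-201 with a posterior SD of 356 reads, against 0 in the original with a posterior mean of 31.2 and an SD of 24.7 reads. Only those 131 bases separate the models, and no fold is given for Btnl6-201. For Btnl6-202 itself, 7265 counts in the repeat library and 3376 in the original gave a log2 ratio of 0.39 with an SE of 0.03. That was less than 2-fold (adjusted p = 6.92e-39 over all transcripts, exact binomial test). Among 31667 tested transcripts 77.1% were called, 45.7% higher in the repeat library and 31.4% in the original. The SE and p-value leave out the posterior SD of 356 reads, which the 7265 counts share with Btnl6-201.

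Btnl2 also had a pair of models. They share 7 of 9 exons, use alternative exons of 21 bases at place 5 and differ by 3 bases at the end in M21. The alternative exons are shown because reads across them are nearly all that separates the models. Capitals mark the 11 positions at which they differ.

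Btnl2-201, exon 5, chr17:34362659-34362679, plus strand: AGaggctcCAGACCGaaCtgG
Btnl2-202, exon 5, chr17:34363017-34363037, plus strand: CAaggctcTTCTTTAaaTtgC

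Btnl2-201 held 99.85% of the gene's TPM in the repeat library and 100% in the original. The deposited posterior counts were less decided in the original library. There Btnl2-201 had a posterior mean of 1045 reads and Btnl2-202 one of 421, each with an SD of 358. In the repeat library the posterior means were 7220 and 20.7 reads, with an SD of 12.9. The split between the Btnl2 models was thus not resolved in the original library. By structure, Btnl2 holds 86 coding bases in its last exon, against 509 in Btnl1, 605 in Btnl6-201 and 737 in Btnl4, whose long last exons carry the B30.2 domain.

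**Figure D3:**
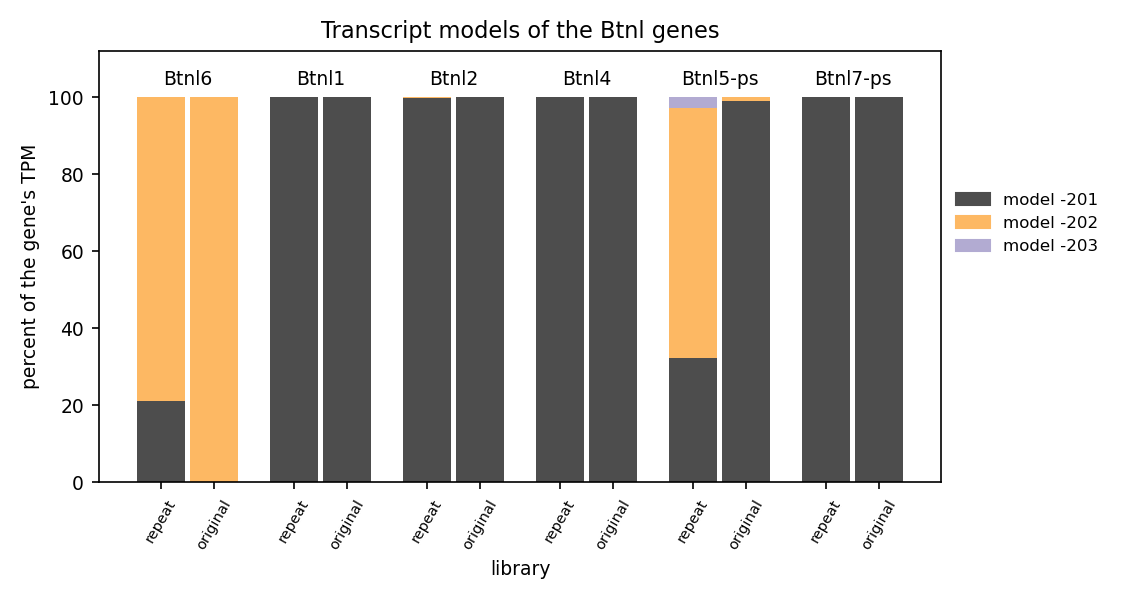
Percent of each gene's TPM assigned to each annotated transcript model, with the repeat library left of the original. Btnl1, Btnl4 and Btnl7-ps have 1 model each, and Btnl2-201 holds 99.85% in the repeat library and 100% in the original by the deposited percent, although the posterior counts leave its split unresolved in the original. Btnl6-201 holds 21.2% in the repeat library against 0% in the original, and Btnl5-ps-202 holds 64.9% against 1.11%.

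Both pseudogenes of the cluster were transcribed at levels like those of the coding genes. Btnl7-ps stood at 100.1 TPM in the repeat library and 22.1 TPM in the original, from 2988 and 1027 counts. Btnl5-ps stood at 567 TPM in the repeat library and 33.6 TPM in the original, from 7457 and 1537 counts. Its log2 ratio on TMM-scaled counts was 1.56 with an SE of 0.04, a 2.95-fold difference, against a 16.9-fold ratio of TPM. Its effective length was 698 bases in the repeat library and 1547 in the original, which widens the TPM ratio. The TPM scale widened the ratios of the other genes too, as in Btnl2, with a 3.01-fold difference in TMM-scaled counts and a 7.72-fold ratio of TPM. A short model of 461 bases at the gene's start, Btnl5-ps-202, was assigned 1968 counts in the repeat library and 3 in the original. The long model Btnl5-ps-201 had 5417 counts in the repeat library and 1534 in the original. Up to 11.2% of windows of 50 bases in these pseudogenes occur in another gene of the cluster.

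Beyond the cluster the neighbours were uneven. Upstream of Btnl2, H2-Eb1, a class II beta chain of antigen-presenting cells, stood at 207 TPM in the repeat library and 0.650 in the original. These values rested on 3928 and 19 counts, at a GC content of 54.1%. The log2 ratio of H2-Eb1 on TMM-scaled counts was 6.95, and 4.80 with the GC trend subtracted. H2-Eb2 stood at 1.25 and 0.790 TPM in the same order, and the pseudogene H2-Ea-ps had 0 counts in both. Between Btnl1 and Btnl4, Gm15320 and Gm15321 had 0 counts in both libraries and BC051142 had 13 counts in the repeat library and 10 in the original. A count of 0 allows up to 0.122 CPM (counts scaled to library total) in the repeat library and 0.106 CPM in the original, for counting error only. Among the small pseudogene fragments, Gm15331 had 75 counts in the repeat library and 1 in the original, Gm15332 had 1 and 0 in the same order, and Gm15329 had 0 in both. Past Btnl7-ps, the receptor gene Notch4 stood at 1.37 TPM in the repeat library and 0.04 TPM in the original.

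**Figure D4:**
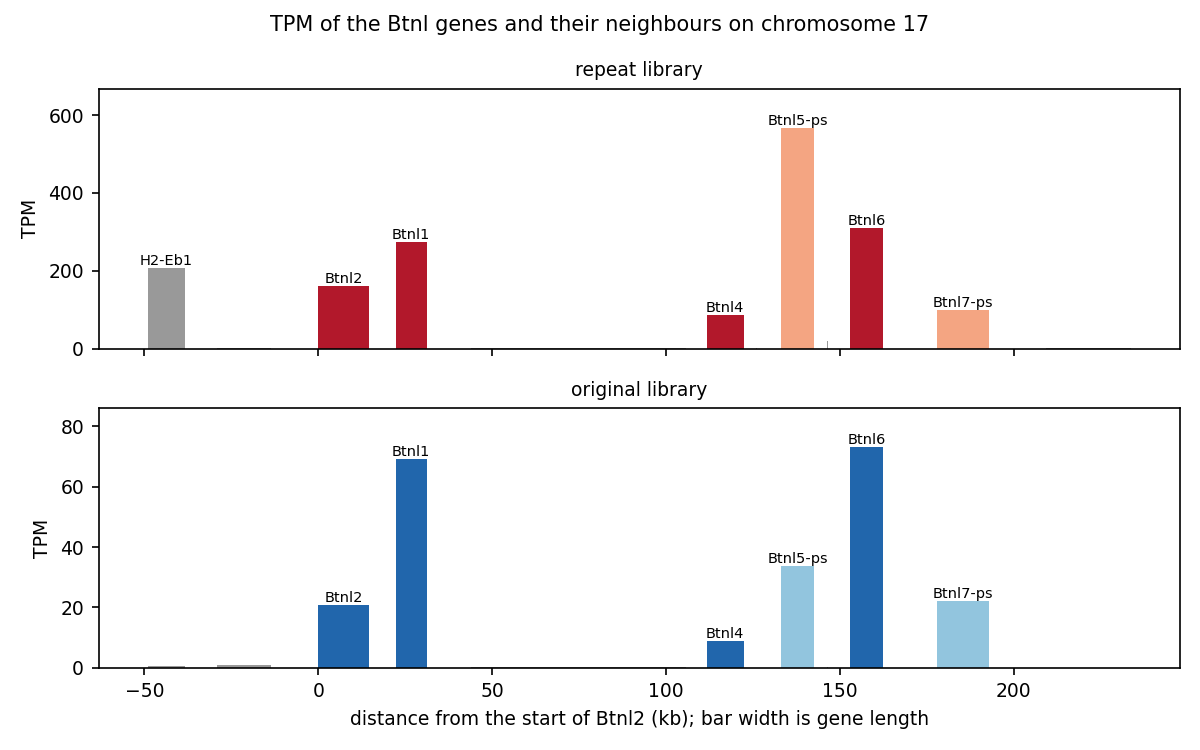
TPM of the Btnl genes and their nearest annotated neighbours by distance from the start of Btnl2, in the repeat library (top) and the original library (bottom), on separate linear axes. Bar width is gene length, pale bars are the pseudogenes Btnl5-ps and Btnl7-ps, and grey bars are other genes. The 6 Btnl loci are transcribed in both libraries, while H2-Eb1 is high in the repeat library only, at 207 TPM against 0.650 TPM.

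Apart from both pseudogenes, expression elsewhere in the family was at or near 0. Of 19 other butyrophilin-family and Skint genes matched, 13 had 0 counts in both libraries, among them Btn2a2, Btnl10, the myelin gene Mog and 10 of the 11 Skint genes, whose member Skint1 acts in the thymus and skin on another gamma-delta subset. Skint3 had 10 counts in the repeat library and 41 in the original. Btn1a1, the milk-fat butyrophilin, had 1 count in each. Btnl9 stood at 0.400 TPM in the repeat library and 0.250 in the original, and Ermap, an erythroid family member, at 0.360 and 0.210 TPM. Thymic and keratinocyte markers were likewise nearly absent, with 2 counts in the repeat library and 0 in the original for Foxn1, and 0 in both for Krt5 and Krt14.

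The promoter windows of Btnl1 and Btnl2 were read for the binding letters of factors known in the gut epithelium. The 250 bases before the RefSeq start are printed (RefSeq, GRCm38.p6, the assembly of mm10), since these genes share a cluster and a tissue. Both strands were searched, and capitals mark every match. The letters for HNF4 factors were CAAAGTCCA, with the shorter CAAAG lying inside it and counted for both. The letters for CDX factors were TTTATG. For the GATA factors of the gut they were AGATAA.

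Btnl1, chr17:34376882-34377131, plus strand: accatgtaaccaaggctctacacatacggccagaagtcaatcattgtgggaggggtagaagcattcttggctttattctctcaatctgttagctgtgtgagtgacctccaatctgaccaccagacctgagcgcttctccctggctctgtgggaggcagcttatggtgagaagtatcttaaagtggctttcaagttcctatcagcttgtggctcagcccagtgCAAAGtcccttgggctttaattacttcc
Btnl2, chr17:34354572-34354821, plus strand: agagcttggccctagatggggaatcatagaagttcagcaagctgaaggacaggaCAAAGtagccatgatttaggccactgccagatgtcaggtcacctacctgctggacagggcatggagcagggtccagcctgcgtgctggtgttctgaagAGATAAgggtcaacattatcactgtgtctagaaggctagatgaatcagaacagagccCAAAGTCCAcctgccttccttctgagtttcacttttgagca

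The Btnl2 window held CAAAGTCCA from 41 to 33 bases before the start, letters found in 0.384% of 32851 promoter windows of that length. It also held AGATAA from 98 to 93 bases before the start, found in 9.99% of windows, and a further CAAAG from 196 to 192 bases before it. The Btnl1 window held CAAAG from 28 to 24 bases before the start, found in 48.6% of windows. TTTATG, found in 10.8%, was in neither. The RefSeq windows of Btnl4 and Btnl6 are anchored at the start codon, at 34475937 and 34517352, and were 91.9% identical over 248 aligned bases. They are not described as promoters, since M21 places a further exon of Btnl4 upstream, at 34476985 to 34477318.

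HNF4 genes and other intestinal transcription factors were expressed in both libraries. Hnf4g, a nuclear receptor of enterocytes, stood at 234 TPM in the repeat library and 254 TPM in the original, and its relative Hnf4a at 223 and 27.3 TPM. Elf3, an epithelial ETS factor, stood at 179 and 3.09 TPM, and Klf4 at 95.4 and 56.7 TPM. Of 12 intestinal transcription factors tested, 8 were called higher in the repeat library and 2 in the original, where 39.2% and 29.1% of all tested genes were. Their median log2 ratio was 1.61 where all genes had 0.18. Once the GC trend was subtracted the counts were 3 and 6, where 17.6% of all genes were called in each direction, and the median was -0.82.

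The epithelial markers fitted the tissue label, and their summed TPM was far above that of the Btnl genes. Of 20 listed, 18 reached 1 TPM in both libraries. The 20 listed epithelial genes summed to 49600 TPM in the repeat library and 9035 TPM in the original. By mean TPM over both libraries Apoa4, Fabp1, Fabp2 and Apoa1, carriers of lipid, led the list, but the order differed between libraries. Fabp2 stood at 5248 TPM in the repeat library and 3191 TPM in the original, and Fabp1 at 9783 and 1080 TPM. Apoa4 stood at 12533 TPM in the repeat library and 22.5 TPM in the original, and Apoa1 at 7616 and 68.8 TPM. Of the 20, 12 were called higher in the repeat library and 2 in the original, against 39.2% and 29.1% of all tested genes. With the GC trend subtracted these were 10 and 4, against 17.6% of all genes each way. The median log2 ratio was 1.94 before that step and 0.94 after it.

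Of the receptor of the T cells that the Btnl1 and Btnl6 pair is known to engage, mainly gamma chain RNA was measured. Whether this RNA came from those cells was not tested. Tcrg-V7, the V gamma 7 segment, stood at 12.8 TPM in the repeat library and 13.3 TPM in the original, from 42 and 64 counts. It had the most TPM of the 5 gamma variable segments listed, with Tcrg-V1 at 3.10 TPM in the repeat library and 6.34 in the original, and Tcrg-V4 at 3.36 and 5.55. Tcrg-V6, a segment of another gamma-delta subset, had 0 counts in both libraries, and Tcrg-V5, that of skin, had 2 and 0. The constant genes Tcrg-C1, Tcrg-C2 and Tcrg-C4 stood at 23.9, 10.3 and 5.80 TPM in the repeat library and at 24.8, 8.41 and 12.6 TPM in the original. All 6 receptor genes tested were called higher in the original library on TMM-scaled counts, where 29.1% of all genes were, and 0 were called once the GC trend was subtracted, where 17.6% of all genes were called in each direction. Their median log2 ratio was -1.67 on TMM-scaled counts, while on the TPM scale Tcrg-V7 and Tcrg-C1 were close in the libraries. Trdv4, a delta variable segment, had 1 count in the repeat library and 3 in the original, and the delta constant gene is not analysed here.

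Other genes of intraepithelial lymphocytes were led by Gzma, a granzyme of killer cells, at 131 TPM in both libraries. On TMM-scaled counts the log2 ratio of Gzma was -1.35, and it was called higher in the original. With the GC trend subtracted the ratio was -0.06 and Gzma was not called. The chemokine Ccl5 stood at 86.3 TPM in the repeat library and 4.21 in the original, the receptor adaptor Tyrobp at 78.6 and 0.630, and the granzyme Gzmb at 43.0 and 19.4. Of 22 tested, 10 were called higher in the repeat library and 3 in the original, beside 39.2% and 29.1% of all tested genes. With the GC trend subtracted these were 10 and 1, beside 17.6% of all genes each way. Among epithelial signals to these cells, the chemokine Ccl25 stood at 726 TPM in the repeat library and 404 in the original, the cytokine Il18 at 214 and 439, and Il15, which sustains intraepithelial lymphocytes, at 18.5 and 10.9. H2-T3, the thymus leukaemia antigen that binds CD8 alpha chains, stood at 210.2 and 23.2 TPM. Of 12 such genes, 4 were called higher in the repeat library and 3 in the original, shares near the 39.2% and 29.1% of all tested genes.

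For each Btnl gene, the 3 autosomal protein-coding genes nearest in log2(TPM + 1) over the 2 libraries were found by Euclidean distance. For Btnl6 these were Eif4a1 (distance 0.092), Rpl24 and Gm49342. For Btnl1 they were Gm49342 (0.087), Sri and Eif4a1, so 2 of the 3 were the same as for Btnl6. For Btnl2 they were Arpc1b (0.068), Eif3h and Cd81, and for Btnl4 Mien1 (0.054), Msra and Nisch. None lies on chromosome 17. Likeness over 2 libraries of 1 tissue says only that the levels are near.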

How the data were processed

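Poly(A) RNA was measured in 2 technical libraries of 1 animal, each with a gene and a transcript table in RSEM format, per the file headers. The deposited notes give assembly mm10 and annotation M4. The aligner, the quantifier version and the filters on reads were not given in the sources used here. The authors deposited expected counts, estimates that need not be whole. TPM and FPKM were deposited per gene and transcript. Isoform shares were deposited as percent of a gene's TPM. Symbols, positions and GC content came from GENCODE M21, matched without versions (42462 genes with a symbol). The 4 genes and all lists were chosen with earlier results of these data known.

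Expected counts were rounded. Library sizes were TMM-scaled (edgeR 4.0.16). A single library per side leaves nothing to estimate spread from, which bars edgeR's quasi-likelihood test, and a two-sided exact binomial test (scipy 1.17.1) with Benjamini-Hochberg adjustment was used. Log2 ratios are repeat over original with 0.5 prior counts. P-values describe counting error alone. Reads carry no molecular identifiers, so they are not independent molecules, and any spread between these libraries may be technical. Genes needed 20 counts over both libraries. Counts were also simulated from the observed means with counting error alone, without a GC trend or other spread between libraries. Of 199 genes changed 4-fold among 15156, 96.98% were recovered, with 2 false calls. Such a simulation cannot say how many calls between the real libraries are false. Alternatives were DESeq2 1.42.0 size factors, total counts, TMM without mitochondrial genes, removal of a lowess GC trend (span 0.3), 2 prior counts, no count filter, FPKM and single libraries. Named genes were all 4 Btnl genes with their transcripts, the rest of the family, up to 4 genes of highest mean TPM per list, listed genes at 0 counts, 3 neighbours on each side and the 3 nearest genes by level. Tcrg-V1, Tcrg-V4, Tcrg-V5, Trdv4, Il15 and Xcr1 fall outside that rule and were chosen after their values were seen. Identity between genes is of nucleotides, in place of the planned protein alignment, since protein sequences were not used here. Of the listed genes, Btnl12 and Trdc did not match and are not analysed here. Copies of mitochondrial genes in the nucleus (11 genes) were identified by BLAST 2.17.0 (95% identity over 100 bases).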

Additional observations from a re-analysis of the deposited data

How the results depend on the processing

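The levels of the 4 Btnl genes kept their order in either library alone. With mitochondrial genes left out the mean TPM rose to 330.5 for Btnl6, 299.2 for Btnl1, 140.4 for Btnl2 and 71.1 for Btnl4. In the main setting the means were 192, 171, 91.0 and 47.5 TPM in the same order. As FPKM they were 157.7, 141.1, 72.8 and 37.7. These means stayed within 1 SD of the main ones, but that limit is wide, since the SD of 2 libraries was about as large as the mean. The log2 ratios kept their direction and calls with DESeq2 size factors, TMM without mitochondrial genes, 2 prior counts and no count filter. With total counts as library sizes Btnl1 (1.55) and Btnl6 (1.63) also passed 2-fold, so 4 of the genes were called higher in the repeat library, and all genes called higher in the original library numbered 1526 in place of 4427. With the GC trend subtracted Btnl2 (0.44) and Btnl4 (0.78) fell under 2-fold, Btnl1 turned to -0.22, and 0 of the 4 were called, while all genes called numbered 2663 higher in the repeat library and 2662 in the original, in place of 5961 and 4427. In the same setting 17.6% of all genes were called in each direction. Higher in the repeat library were 0 of 5 other butyrophilin genes and 0 of 7 B7 genes, in place of 1 and 3. Transcription factors gave 3 of 12 in place of 8, and epithelial signals 2 of 12 in place of 4. Epithelial genes gave 10 of 20 in place of 12, and intraepithelial lymphocyte genes stayed at 10 of 22. Gamma-delta receptor genes stayed at 0 of 6. Higher in the original library were 0 of 6 gamma-delta receptor genes in place of 6, and 1 intraepithelial lymphocyte gene in place of 3. Epithelial genes gave 4 in place of 2, transcription factors 6 in place of 2 and epithelial signals 1 in place of 3. Other butyrophilin and B7 genes stayed at 2 each. The cause was not tested. No paired analysis was possible because both libraries belong to 1 group. The variable segments of the gamma receptor rest on 64 counts or fewer in each library.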

Other observations

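The B7 family, co-stimulatory and inhibitory relatives of the butyrophilins, stayed low beside the Btnl genes. Vsir stood at 13.1 TPM in the repeat library and 0.700 in the original, Icosl at 7.60 and 0.880, Cd86 at 2.21 and 3.05, and Cd274, which encodes PD-L1, at 2.78 and 2.32. Vtcn1 had 0 counts in both libraries. Of 7 tested, 3 were called higher in the repeat library and 2 in the original, shares near the 39.2% and 29.1% of all tested genes. With the GC trend subtracted these were 0 and 2, where 17.6% of all genes were called each way. The 8 genes summed to 29.3 TPM in the repeat library and 8.09 TPM in the original, less than Btnl2 alone in each.

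The summed markers of other cell types were higher in the repeat library on the TPM scale. That scale includes the mitochondrial share, 21.6% of TPM in the repeat library and 72.3% in the original. The 4 smooth muscle genes summed to 505 TPM in the repeat library and 20.4 in the original, with Acta2 at 227 and 10.1. The 5 dendritic cell and macrophage genes summed to 89.8 and 5.52 TPM, and the 4 B cell genes to 25.9 and 6.04. The 3 endothelial genes summed to 28.6 and 6.15 TPM, and the 3 acinar genes to 3575 and 473. Median log2 ratios on TMM-scaled counts were 3.34 for smooth muscle genes and 1.32 for those of dendritic cells and macrophages. For B cell, endothelial and acinar genes they were 2.42, 1.85 and 4.08, and for all tested genes 0.18. With the GC trend subtracted they were 2.68, 0.48, 0.44, 0.71 and 2.19 in that order, and -0.003 for all genes. Single markers did not all follow the sums. Ms4a1, a B cell gene, stood at 2.50 TPM in the repeat library and 5.15 in the original, with a log2 ratio of -2.41, and was called higher in the original. Xcr1, a dendritic cell gene, had nearly equal TPM, at 0.560 in the repeat library and 0.570 in the original. These values rested on 45 and 72 counts. In the same list, C1qa, Itgax, Flt3 and Adgre1 had log2 ratios of 5.98, 1.36, 1.32 and -0.32 on TMM-scaled counts. On TMM-scaled counts the log2 ratio of Xcr1 was -1.38, and it was also called higher in the original, as were 29.1% of all tested genes. With the GC trend subtracted the log2 ratios were -0.48 for Ms4a1 and 0.41 for Xcr1, and neither was called. The part of these cell types in the values of the Btnl genes was not tested.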
